A study of Homo sapiens with 30 samples.

Results

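CYP1A1 and 4 other genes of the aryl hydrocarbon receptor pathway, CYP1B1, AHR, AHRR and TIPARP, were followed through 15 groups of SUM190 cells given chemotherapy drugs, a JAK inhibitor or vehicle. They are 5 of the 20114 gene symbols in the deposited expression table, and all 5 symbols were found there. CYP1A1 was chosen on its difference between parental cells under 10 nM paclitaxel and parental cells under DMSO, and the other 4 as its partners in the pathway. CYP1A1 is therefore described without a test in the 12 comparisons that use either of those groups, and no member is tested between those 2 groups. The other 4 are tested in the remaining comparisons that use those groups. The members were chosen with earlier results of these data known, so these tests are not independent of the choice. CYP1A1, CYP1B1, AHR and TIPARP had at least 1 CPM (read counts scaled to a common library total) in all 30 libraries. AHRR passed the filter on low values, which asked for 1 CPM in at least 2 libraries, through only 6 libraries from groups where it was high.

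SUM190 is an established human cell line of inflammatory breast cancer. Poly-A RNA was sequenced from the parental line, a doxorubicin-resistant line and a paclitaxel-resistant line, with 2 libraries in each group. DMSO was the vehicle of the control group of each line. Drugs were given 24 h after seeding and stayed on for 72 h. Parental cells (Par) form 7 groups: DMSO, 2.5 nM paclitaxel, 10 nM paclitaxel, 65 nM doxorubicin, 1 µM doxorubicin, 15 µM ruxolitinib, and a combination of ruxolitinib and 2.5 nM paclitaxel. Doxorubicin-resistant cells (DR) form 3: DMSO, 350 nM doxorubicin and 1 µM doxorubicin. Paclitaxel-resistant cells (PR) form 5: DMSO, 6.5 nM paclitaxel, 10 nM paclitaxel, 15 µM ruxolitinib, and the combination with 6.5 nM paclitaxel. The ruxolitinib dose in both combinations is labelled 15 nM, not 15 µM, and is given here as labelled. Paclitaxel stabilises microtubules, doxorubicin poisons topoisomerase II and intercalates into DNA, and ruxolitinib inhibits the kinases JAK1 and JAK2. The labels name each resistant line once and do not say whether it is a clone or a pool. The study's title concerns JAK-STAT signalling and chemotherapy-resistant states, and the comparisons below ask how the pathway's genes differed between lines and after each drug.

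The aryl hydrocarbon receptor, encoded by AHR, is a transcription factor of the bHLH-PAS family that waits in the cytoplasm with the chaperone HSP90 and its co-chaperone PTGES3. After a ligand binds, the receptor enters the nucleus, pairs with ARNT and binds DNA at the core sequence GCGTG. Its best known target is CYP1A1, a cytochrome P450 that oxidises polycyclic aromatic compounds and oestrogens, and whose messenger RNA is commonly used as a readout of the receptor. CYP1B1 encodes a related P450 that is prominent in breast tissue and hydroxylates oestradiol. AHRR, a repressor that competes for ARNT, and TIPARP, an ADP-ribosyltransferase that modifies the receptor, are targets that feed back on it.

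The 250 bases before the annotated start site of 3 of the target genes are shown because each holds the receptor's core sequence, whose letters are in capitals. They come from the RefSeq promoter table of build GRCh38.p14, a later build than the authors' GRCh37, and are read 5′ to 3′ on the gene's strand. The core was searched as GCGTG on both strands, so CACGC marks a match on the other strand. RefSeq lists 1 window for CYP1A1 (chr15:74725529-74725778, minus strand), 2 for AHRR (the first at chr5:321464-321713, plus strand), 3 for TIPARP (the first at chr3:156674340-156674589, plus strand) and 1 for AHR (chr7:17298402-17298651, plus strand). CYP1B1 was not matched.
CYP1A1: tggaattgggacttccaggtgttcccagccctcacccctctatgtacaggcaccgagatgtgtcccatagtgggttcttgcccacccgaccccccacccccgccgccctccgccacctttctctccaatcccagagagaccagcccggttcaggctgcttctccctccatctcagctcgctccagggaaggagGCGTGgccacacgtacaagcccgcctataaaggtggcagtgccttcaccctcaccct
AHRR, window 1: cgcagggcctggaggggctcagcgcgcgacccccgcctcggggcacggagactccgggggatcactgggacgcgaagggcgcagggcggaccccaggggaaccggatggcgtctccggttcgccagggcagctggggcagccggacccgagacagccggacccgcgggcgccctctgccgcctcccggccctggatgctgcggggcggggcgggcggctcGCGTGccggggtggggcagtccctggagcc
TIPARP, window 1: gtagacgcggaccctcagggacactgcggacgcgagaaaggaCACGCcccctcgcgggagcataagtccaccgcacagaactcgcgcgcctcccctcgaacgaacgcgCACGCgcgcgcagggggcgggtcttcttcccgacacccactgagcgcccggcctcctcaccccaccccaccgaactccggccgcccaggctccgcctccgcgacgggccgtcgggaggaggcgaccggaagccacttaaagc
In CYP1A1 the match starts 57 bases before the start site, close to the TATA box. AHRR has a match 30 bases before the start of its first window and, in its second window, matches 247 and 42 bases before the start. The first TIPARP window holds matches 208 and 142 bases before the start, and the other two windows hold none. The AHR window holds none. Of all RefSeq promoter windows of this length, 32.2% hold at least 1 match and 10.2% hold 2 or more, so a match is common and is given as a description of the sequence only.

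Values are the deposited log2(CPM + 1), and differences are differences of that quantity, which the added 1 pulls toward 0 for scarce genes. The ± sign gives the standard error, and a call means an adjusted p under 0.05 from limma over 12743 genes. Each library held between 18443749 and 32669995 reads in genes, so 3 reads, the most that a count of 0 allows, were worth 0.0947 to 0.163 CPM. The 7 luminal and ERBB2 markers summed to between 4411 and 8522 CPM in every library, while fibroblast, endothelial and hepatocyte marker sums stayed at or below 12.4 CPM and DCN, COL1A2, PDGFRB and APOA1 below 1 CPM. The 3 basal markers summed to 2.21 to 14.8 CPM, mostly TP63, with KRT14 below 1 CPM. The 4 leukocyte markers summed to 7.30 to 38.8 CPM, mostly CD68 (6.77 to 36.5 CPM), with CD3E below 1 CPM. PTPRC ran from 0 to 5.96 CPM (median 0.124) and CD14 from 0.0476 to 5.20 CPM (median 0.542). In bulk RNA, fewer cells of a kind and less RNA per cell cannot be told apart. Replicates of several groups differed along transcript GC content, most of all in parental DMSO (Spearman's rho of the replicate difference with GC 0.80 across 12149 genes), so values corrected for GC content and length are given where they change a call or move a called value by over 1.5 times. The strand setting of the authors' counting is not given in the sources used here, so reads of CYP1B1 and RMDN2, which overlap on opposite strands, and of AHRR and PDCD6, which overlap on the same strand, may be shared.

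CYP1A1 ranged widely over the libraries, from 8.35 CPM in a PR DMSO library to 100.2 CPM in a parental library under 1 µM doxorubicin. In parental cells it stood at 9.79 and 11.4 CPM under DMSO, at 30.7 and 35.4 CPM under 2.5 nM paclitaxel and at 87.5 and 75.4 CPM under 10 nM. These 3 groups did not overlap, and the group means under paclitaxel were 3.11 and 7.67 times that under DMSO. The log2 differences were 1.55 at 2.5 nM and 2.83 at 10 nM, where only 1 gene of 12743 had a higher one. The second chose the gene and the first shares its DMSO libraries, so neither has a test. In PR cells CYP1A1 was at 8.35 and 9.26 CPM under DMSO, at 13.6 and 14.3 CPM under 6.5 nM paclitaxel and at 50.04 and 42.7 CPM under 10 nM. These groups did not overlap either. At 10 nM CYP1A1 rose 5.27-fold in mean CPM (log2 difference 2.27 ± 0.14, adjusted p = 1.04e-10), the fourth largest rise among all genes tested. It also rose between 6.5 and 10 nM (1.66 ± 0.14, adjusted p = 5.02e-08). At 6.5 nM the difference of 0.61 ± 0.14 did not pass (adjusted p = 0.087), and it passed with only the cell lines compared in the fit (adjusted p = 0.0053) and with GC and length correction (0.58, adjusted p = 0.0087). The leukocyte marker sum, mostly CD68, was also higher, from 18.0 and 19.1 CPM under DMSO to 35.0 and 38.8 CPM under 10 nM paclitaxel in parental cells and from 9.70 and 10.3 to 13.7 and 14.9 CPM in PR cells. Under ruxolitinib alone, where CYP1A1 was higher too, the sum was lower in parental cells, at 10.7 and 11.6 CPM. With ruxolitinib added to 2.5 nM paclitaxel it was 13.5 and 13.7 CPM there, against 25.9 and 28.6 CPM without. The part of this sum in the result was not tested. At 10 nM both PR libraries lay below both parental libraries for CYP1A1, and the ratio of mean CPM was 0.570, described without a test.

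**Figure D1:**
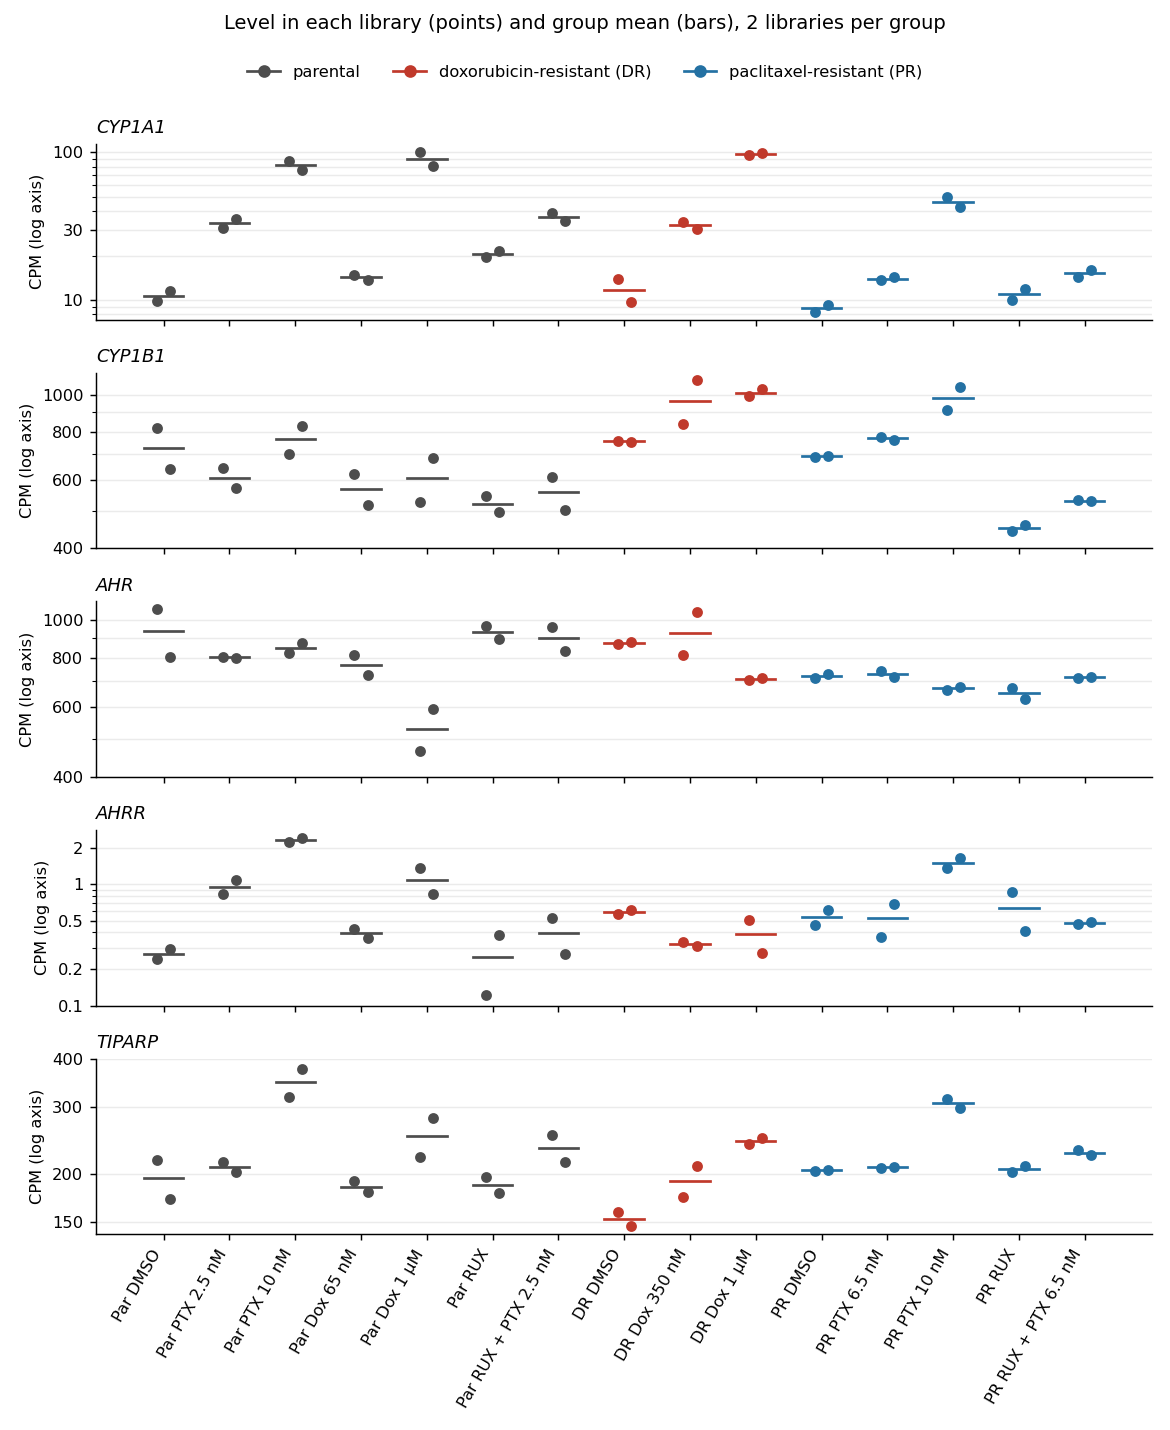
CPM of the 5 members in each library (points, log axes) and the mean of each group (bars), with parental (Par), doxorubicin-resistant (DR) and paclitaxel-resistant (PR) cells under DMSO, paclitaxel (PTX), doxorubicin (Dox) or ruxolitinib (RUX). CYP1A1 moved between 8.35 and 100.2 CPM, CYP1B1 and AHR stayed within 2.46-fold and 2.29-fold ranges, and AHRR passed 1 CPM in 6 libraries only.

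Doxorubicin gave a similar picture for CYP1A1. In DR cells the gene was at 13.9 and 9.65 CPM under DMSO, at 33.6 and 30.4 CPM under 350 nM doxorubicin and at 95.9 and 98.6 CPM under 1 µM, without overlap. At 350 nM its rise of 1.39 ± 0.14 (2.72-fold in mean CPM, adjusted p = 2.71e-06) was the largest of all 12743 genes tested. At 1 µM the rise was 2.96 ± 0.14 (8.26-fold, adjusted p = 4.72e-13), exceeded by 1 other gene, and from 350 nM to 1 µM it was 1.58 ± 0.14 (adjusted p = 3.88e-08). Parental cells held 14.8 and 13.7 CPM under 65 nM doxorubicin and 100.2 and 80.8 CPM under 1 µM. From 65 nM to 1 µM CYP1A1 rose by 2.58 ± 0.14 (6.34-fold, adjusted p = 6.70e-14). Against DMSO the differences were 0.40 at 65 nM and 2.97 at 1 µM, with no test. Counted from the largest rise, these stood at ranks 632 and 47 among all genes tested. The rise from 65 nM to 1 µM stood at rank 62. At 1 µM doxorubicin DR and parental cells differed by 0.11 ± 0.14 (adjusted p = 0.47), with overlapping libraries, and this difference lay between -0.04 and 0.26 over the 13 settings tried. The leukocyte marker sum was 25.6 and 28.0 CPM in parental and 23.7 and 29.9 CPM in DR cells at 1 µM, against 18.0 and 19.1 and 19.7 and 22.3 CPM under DMSO, and its part was not tested. Of the 7 calls for CYP1A1, the 6 under drug kept an adjusted p under 0.05 in every setting tried.

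**Figure D2:**
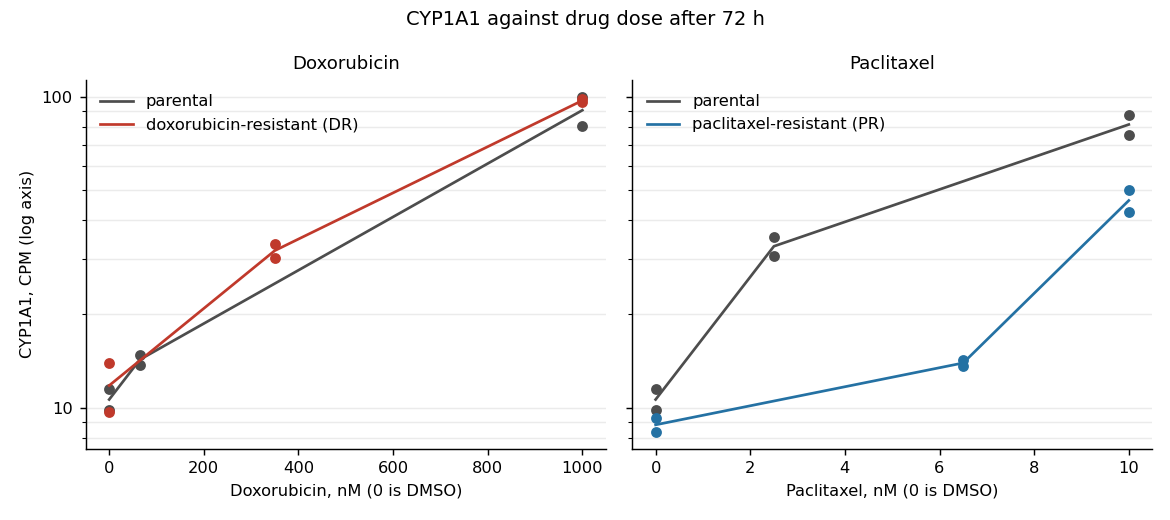
CYP1A1 in CPM (log axis) against the dose of doxorubicin (left) and paclitaxel (right), with 1 point per library and lines through the group means; 0 is DMSO. DR and parental cells lie close together at 1 µM doxorubicin, and PR cells lie below parental cells at 10 nM paclitaxel, at 42.7 and 50.04 against 75.4 and 87.5 CPM.

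Ruxolitinib alone was accompanied by a smaller difference in CYP1A1. Parental libraries had 19.6 and 21.6 CPM against 9.79 and 11.4 under DMSO, a ratio of means of 1.94 that is described without a test. PR libraries had 10.1 and 11.8 CPM against 8.35 and 9.26, which did not pass (0.28 ± 0.14, adjusted p = 0.27). Added to paclitaxel, ruxolitinib left CYP1A1 at 39.0 and 34.3 CPM against 30.7 and 35.4 in parental cells (0.15 ± 0.14, adjusted p = 0.44) and at 14.4 and 16.0 CPM against 13.6 and 14.3 in PR cells (0.12 ± 0.14, adjusted p = 0.82). Over the settings tried these last 2 differences ranged from 0.04 to 0.25 and from 0.04 to 0.19. Between lines CYP1A1 was tested only for DR against PR cells under DMSO and for DR against parental cells under 1 µM doxorubicin. The other comparisons between lines use parental DMSO or parental 10 nM paclitaxel and have no test for it. Under DMSO the 3 lines lay near each other. The difference between DR and PR cells there (0.36 ± 0.14, adjusted p = 0.042) was the sole call among the tests between lines for this gene. It did not pass with no filter on low values (adjusted p = 0.077), in a voom fit (0.084), or without DR DMSO replicate 1 (0.12, adjusted p = 0.62), PR DMSO replicate 1 (0.30, adjusted p = 0.23) or PR DMSO replicate 2 (0.43, adjusted p = 0.070). Ordered by group mean, CYP1A1 was lowest in PR DMSO at 8.81 CPM, followed by parental DMSO, PR ruxolitinib, DR DMSO, PR 6.5 nM paclitaxel, parental 65 nM doxorubicin and the PR combination at 15.2 CPM. Within that stretch from parental DMSO onward no group was clear of the next. Parental ruxolitinib at 20.6 CPM stood apart from its neighbours, and DR 350 nM doxorubicin, parental 2.5 nM paclitaxel and the parental combination formed an overlapping run from 32.0 to 36.6 CPM. PR 10 nM paclitaxel at 46.4 CPM was clear of both sides, and the 3 highest groups, parental 10 nM paclitaxel, parental 1 µM doxorubicin and DR 1 µM doxorubicin, overlapped at 81.4 to 97.3 CPM.

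TIPARP, the ADP-ribosyltransferase, was also higher at the higher dose of each drug. In parental cells it was at 218 and 172 CPM under DMSO, 215 and 203 CPM under 2.5 nM paclitaxel and 317 and 376 CPM under 10 nM. It rose from 2.5 to 10 nM by 0.72 ± 0.12 (1.66-fold, adjusted p = 9.75e-05), and against DMSO the 10 nM value was 0.83 higher, with no test. The tested rise shares its 10 nM libraries with the comparison on which CYP1A1 was chosen. At 2.5 nM the difference of 0.11 did not pass (adjusted p = 0.50), and it passed with GC and length correction (0.27, adjusted p = 0.0029). In PR cells TIPARP was at 204 and 205 CPM under DMSO, 207 and 209 CPM under 6.5 nM and 315 and 297 CPM under 10 nM. There it rose at 10 nM against DMSO (0.58 ± 0.12, adjusted p = 0.0016) and against 6.5 nM (0.55 ± 0.12, adjusted p = 0.0073). The second of these did not pass without PR 6.5 nM replicate 1 (0.55, adjusted p = 0.095), PR 6.5 nM replicate 2 (0.56, adjusted p = 0.060) or PR 10 nM replicate 1 (0.51, adjusted p = 0.080). The 2 libraries at 10 nM lay above both at the lower dose and above both under DMSO in either line.

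Under doxorubicin, TIPARP in DR cells went from 159 and 146 CPM under DMSO to 173 and 209.8 CPM at 350 nM and 239.8 and 249 CPM at 1 µM. The rise at 1 µM was 0.68 ± 0.12 (1.60-fold, adjusted p = 6.51e-05), and that from 350 nM to 1 µM was 0.35 ± 0.12 (adjusted p = 0.031). The latter did not pass with no filter on low values (adjusted p = 0.054) or without DR 350 nM replicate 1 (0.22, adjusted p = 0.29), DR 1 µM replicate 1 (0.38, adjusted p = 0.093) or DR 1 µM replicate 2 (0.33, adjusted p = 0.16). At 350 nM the difference of 0.32 ± 0.12 did not pass (adjusted p = 0.13) and passed with GC and length correction (0.27, adjusted p = 0.0038). Parental cells had 191 and 179 CPM at 65 nM and 222 and 279.6 CPM at 1 µM, a rise of 0.36 ± 0.12 against DMSO (adjusted p = 0.0072) and of 0.43 ± 0.12 against 65 nM (adjusted p = 0.0020). Without parental DMSO replicate 2 the first was 0.19 (adjusted p = 0.18), and without parental 1 µM replicate 2 the values were 0.19 (adjusted p = 0.18) and 0.26 (adjusted p = 0.073). Between lines under DMSO, TIPARP was lower in DR than in parental cells (-0.34 ± 0.12, adjusted p = 0.028) and than in PR cells (-0.42 ± 0.12, adjusted p = 0.0061). The difference from parental cells did not pass with no filter on low values (adjusted p = 0.054), with only the cell lines compared (0.080), without parental DMSO replicate 1 (-0.18, adjusted p = 0.34) or without DR DMSO replicate 2 (-0.28, adjusted p = 0.21), and that from PR cells did not pass without DR DMSO replicate 2 (-0.36, adjusted p = 0.073). With GC and length correction both passed (-0.35 and -0.38). At 10 nM paclitaxel TIPARP in PR against parental cells differed by -0.18 (adjusted p = 0.21), and with that correction by -0.28 (adjusted p = 3.46e-04). None of the 4 ruxolitinib comparisons was called for TIPARP.

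AHRR, the repressor of the receptor, was scarce throughout, with 3 to 54 reads per library. All 11 of its calls involve a group through which it passed the filter on low values, so they are not independent of that filter. It was at 0.243 and 0.290 CPM in parental cells under DMSO, at 0.824 and 1.07 CPM under 2.5 nM paclitaxel and at 2.23 and 2.401 CPM under 10 nM. It rose at 2.5 nM (0.62 ± 0.15, adjusted p = 0.0066) and again from 2.5 to 10 nM (0.77 ± 0.15, adjusted p = 7.56e-04), and the 10 nM mean was 8.69 times that of DMSO, with no test. The first of these rises did not pass without parental DMSO replicate 1 (0.59, adjusted p = 0.085) or without parental 2.5 nM replicate 2 (0.53, adjusted p = 0.10), and with GC and length correction it was 0.43 (adjusted p = 0.048). In PR cells AHRR was at 0.464 and 0.607 CPM under DMSO, 0.365 and 0.683 CPM under 6.5 nM and 1.36 and 1.63 CPM under 10 nM. It rose at 10 nM against DMSO (0.70 ± 0.15, adjusted p = 0.0032) and against 6.5 nM (0.72 ± 0.15, adjusted p = 0.0079). Neither held in every setting: the first had an adjusted p of 0.052 without PR DMSO replicate 1, and the second was 0.57 (adjusted p = 0.18) without PR 6.5 nM replicate 1 and 0.64 (adjusted p = 0.053) without PR 10 nM replicate 2.

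In parental cells under 1 µM doxorubicin AHRR had 1.35 and 0.825 CPM against 0.430 and 0.359 at 65 nM. It rose by 0.71 ± 0.15 against DMSO (adjusted p = 2.06e-04) and by 0.57 ± 0.15 against 65 nM (adjusted p = 0.0018), the latter 0.39 (adjusted p = 0.056) without parental 1 µM replicate 1. With GC and length correction these rises were 1.00 and 0.95. DR cells had 0.571 and 0.615 CPM under DMSO, 0.337 and 0.310 CPM at 350 nM and 0.505 and 0.271 CPM at 1 µM, and no difference within that line was called. Thus CYP1A1 rose in DR cells under 1 µM doxorubicin and AHRR did not pass there (-0.20 ± 0.15, adjusted p = 0.31). At 1 µM AHRR was lower in DR than in parental cells (-0.58 ± 0.15, adjusted p = 0.0016), a difference of -0.40 (adjusted p = 0.052) without parental 1 µM replicate 1. At 10 nM paclitaxel it was lower in PR than in parental cells (-0.41 ± 0.15, adjusted p = 0.029). That difference did not pass with a pseudocount of 0.25 CPM (adjusted p = 0.12), in a voom fit (0.054), or without parental 10 nM replicate 1 (-0.45, adjusted p = 0.064), parental 10 nM replicate 2 (-0.37, adjusted p = 0.12) or PR 10 nM replicate 1 (-0.33, adjusted p = 0.17). With ruxolitinib added to 2.5 nM paclitaxel AHRR was at 0.524 and 0.267 CPM in parental cells, against 0.824 and 1.07 with paclitaxel alone (-0.48 ± 0.15, adjusted p = 0.022). That fall did not pass with only the cell lines compared (adjusted p = 0.056), with GC and length correction (-0.29, adjusted p = 0.18), or without parental 2.5 nM replicate 2 (-0.39, adjusted p = 0.19) or the combination's replicate 2 (-0.35, adjusted p = 0.15).

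CYP1B1, the second P450, followed another order. It was lowest under ruxolitinib, at 443 and 459.6 CPM in PR cells, and highest in DR cells under 1 µM doxorubicin, at 992 and 1031 CPM. Under ruxolitinib in PR cells it fell from 689.5 and 695 CPM (-0.62 ± 0.13, 0.652 of the DMSO mean, adjusted p = 0.0052), and in PR cells under 6.5 nM paclitaxel from 776 and 763 to 532 and 532 CPM (-0.53 ± 0.13, adjusted p = 0.026). In parental cells it was at 546 and 495 CPM under ruxolitinib against 818 and 639.8 CPM under DMSO (-0.48 ± 0.13, adjusted p = 0.020). None of these pairs of groups overlapped. The PR difference did not pass without PR DMSO replicate 2 (-0.61, adjusted p = 0.054) or PR ruxolitinib replicate 1 (-0.59, adjusted p = 0.065). The difference under 6.5 nM did not pass with no filter on low values (adjusted p = 0.061) or without any 1 of the 4 libraries compared (-0.52 to -0.54, adjusted p = 0.154 to 0.185). The parental one did not pass with only the cell lines compared (adjusted p = 0.096), without parental DMSO replicate 1 (-0.30, adjusted p = 0.19), or without parental ruxolitinib replicate 1 (-0.55, adjusted p = 0.053) or 2 (-0.41, adjusted p = 0.18). Ruxolitinib added to paclitaxel in parental cells gave 613 and 504 CPM against 645 and 572 (-0.13 ± 0.13, adjusted p = 0.49).

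At the higher dose of each chemotherapy drug CYP1B1 rose in the resistant lines. At the lower dose it was not called, with 0.34 ± 0.13 in DR cells at 350 nM (838 and 1089 CPM, adjusted p = 0.19). In PR cells at 6.5 nM the difference was 0.15 ± 0.13 (adjusted p = 0.996). From 350 nM to 1 µM in DR cells CYP1B1 differed by 0.08 (adjusted p = 0.72). In PR cells it was at 909.5 and 1047 CPM under 10 nM paclitaxel against 689.5 and 695 under DMSO (0.49 ± 0.13, adjusted p = 0.016), and in DR cells at 992 and 1031 CPM under 1 µM doxorubicin against 760.2 and 752 (0.42 ± 0.13, adjusted p = 0.016). The PR rise did not pass without PR DMSO replicate 1 (0.49, adjusted p = 0.095), PR DMSO replicate 2 (0.50, adjusted p = 0.093) or PR 10 nM replicate 2 (0.39, adjusted p = 0.14), and the DR rise did not pass without any 1 of its 4 libraries (0.39 to 0.45, adjusted p = 0.052 to 0.089). In parental cells the differences were 0.08 under 10 nM paclitaxel, with no test, and -0.27 ± 0.13 under 1 µM doxorubicin (adjusted p = 0.078), with 528 and 685 CPM against 818 and 639.8. That parental difference passed without parental DMSO replicate 2 (-0.44, adjusted p = 0.012) or parental 1 µM replicate 2 (-0.45, adjusted p = 0.0098), and with GC and length correction it was -0.12. Side by side at 1 µM doxorubicin CYP1B1 was 1.67 times as high in DR as in parental cells (0.75 ± 0.13, adjusted p = 3.02e-05), a call that every setting kept. At 10 nM paclitaxel the PR against parental difference of 0.35 ± 0.13 (adjusted p = 0.033) did not pass with no filter on low values (adjusted p = 0.061), median-of-ratios scaling (0.057) or GC and length correction (0.24, adjusted p = 0.079). It also did not pass without parental 10 nM replicate 1 (0.23, adjusted p = 0.27) or PR 10 nM replicate 2 (0.25, adjusted p = 0.23). From 6.5 to 10 nM in PR cells CYP1B1 differed by 0.34 (adjusted p = 0.16), which passed with only the cell lines compared (adjusted p = 5.83e-04) and with GC and length correction (0.36, adjusted p = 0.038). From 2.5 to 10 nM in parental cells it differed by 0.33 (adjusted p = 0.070), which passed with that correction (0.31, adjusted p = 0.038) and without parental 10 nM replicate 1 (0.45, adjusted p = 0.041). At 2.5 nM against DMSO it differed by -0.25 (adjusted p = 0.16), and by -0.43 (adjusted p = 0.028) without parental DMSO replicate 2. Under DMSO no difference in CYP1B1 between the 3 lines was called.

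The receptor gene AHR fell under 1 µM doxorubicin in both lines given it, where CYP1A1 was higher. It was lowest in parental cells under 1 µM doxorubicin, at 466 and 594 CPM, against 1068 and 807 CPM under DMSO and 817 and 723 CPM at 65 nM. This was a fall of 0.82 on the log2 scale against DMSO (SE 0.12, 0.565 of the DMSO mean, adjusted p = 1.20e-06) and a difference of -0.55 ± 0.12 against 65 nM (adjusted p = 2.26e-04). Both calls held in every setting, and with GC and length correction the differences were -0.61 and -0.48. In DR cells AHR was at 867 and 880.4 CPM under DMSO, 813 and 1044 CPM at 350 nM and 702 and 711 CPM at 1 µM. It fell at 1 µM against DMSO (-0.31 ± 0.12, adjusted p = 0.043) and against 350 nM (-0.38 ± 0.12, adjusted p = 0.023). The first did not pass with no filter on low values (adjusted p = 0.074), median-of-ratios scaling (0.060), or without any 1 of its 4 libraries (adjusted p = 0.12 to 0.15), and with GC and length correction it passed at -0.31 (adjusted p = 2.24e-06). The second did not pass without DR 350 nM replicate 2 (-0.20, adjusted p = 0.33), DR 1 µM replicate 1 (-0.37, adjusted p = 0.11) or DR 1 µM replicate 2 (-0.39, adjusted p = 0.092). At 1 µM AHR was higher in DR than in parental cells (0.43 ± 0.12, adjusted p = 0.0026), a difference of 0.25 (adjusted p = 0.093) without parental 1 µM replicate 1 and of 0.20 (adjusted p = 2.60e-04) with GC and length correction.

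With all libraries, paclitaxel and ruxolitinib gave no call for AHR within a line. Parental libraries under paclitaxel held 806 and 801 CPM at 2.5 nM and 825 and 875 CPM at 10 nM, within the range of the DMSO libraries or just below it, and PR libraries held between 665 and 742 CPM under either dose. At 2.5 nM the parental difference of -0.21 (adjusted p = 0.19) passed without parental DMSO replicate 2 (-0.41, adjusted p = 0.013). Under ruxolitinib alone AHR was at 966 and 896 CPM in parental cells and at 672 and 630.3 CPM in PR cells, and the PR value passed in a fit of the cell lines compared (-0.15, adjusted p = 0.046). PR cells had less AHR than parental cells under DMSO, at 713 and 728 CPM (-0.36 ± 0.12, adjusted p = 0.020), and at 10 nM paclitaxel, at 665 and 677 CPM (-0.34 ± 0.12, adjusted p = 0.020). The DMSO difference did not pass without parental DMSO replicate 1 (-0.16, adjusted p = 0.33), PR DMSO replicate 1 (-0.35, adjusted p = 0.099) or PR DMSO replicate 2 (-0.38, adjusted p = 0.071). That at 10 nM did not pass without parental 10 nM replicate 2 (-0.30, adjusted p = 0.10), PR 10 nM replicate 1 (-0.33, adjusted p = 0.085) or PR 10 nM replicate 2 (-0.35, adjusted p = 0.058). With GC and length correction they were -0.45 (adjusted p = 2.13e-09) and -0.46 (adjusted p = 6.12e-10). Between DR and PR cells under DMSO AHR differed by 0.28 (adjusted p = 0.072), which passed with only the cell lines compared (adjusted p = 0.0059) and with that correction (0.35, adjusted p = 2.13e-07). The AHR transcript has 38.2% GC, the lowest of the 5 members, whose highest is AHRR at 57.4%.

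**Figure D3:**
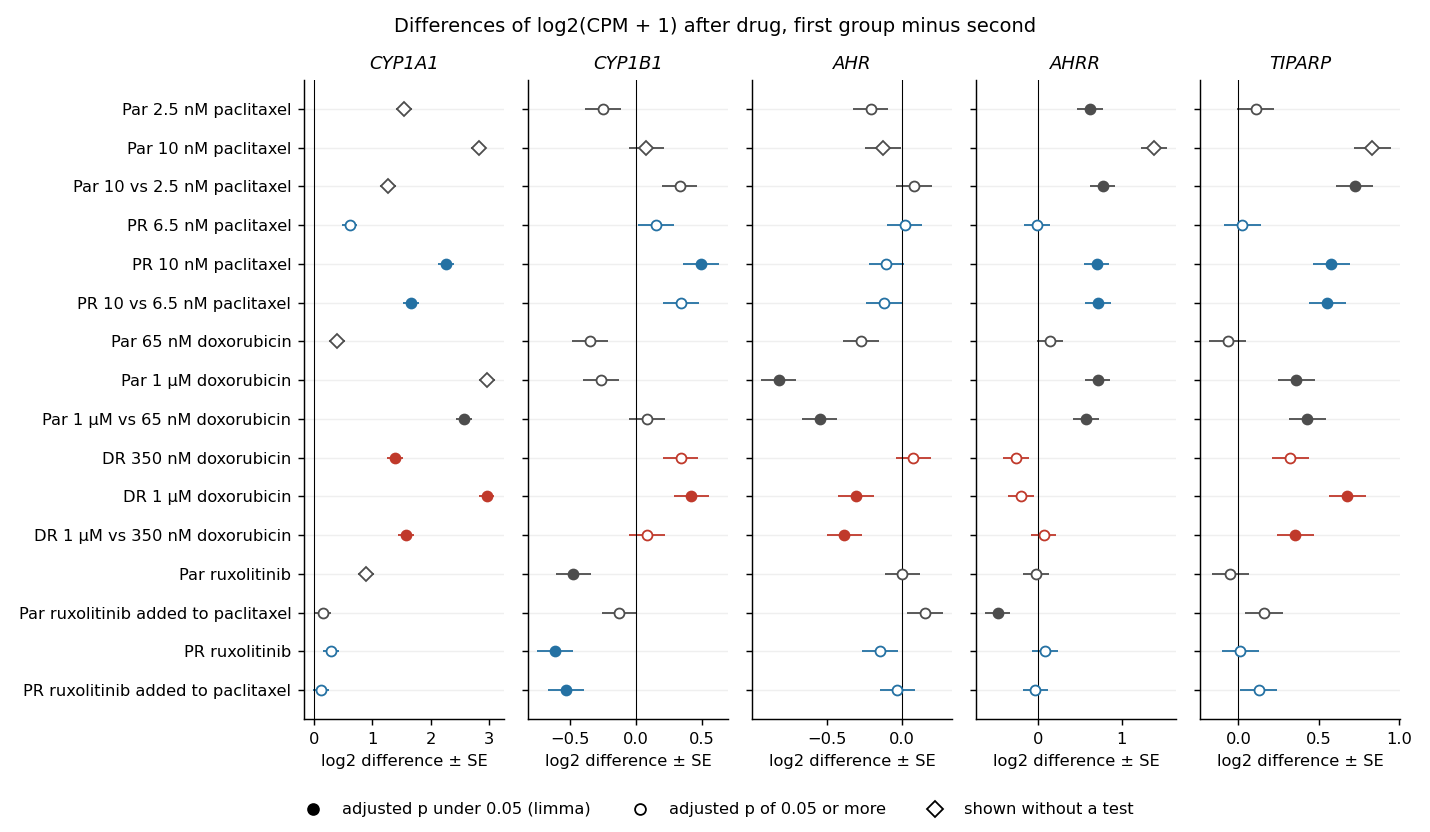
Differences of log2(CPM + 1) ± SE for each member after each drug, against DMSO or the dose or treatment named, with filled circles for an adjusted p under 0.05 by limma, open circles for others and diamonds for values shown without a test. CYP1A1 lies at or above 0 in every comparison, AHR lies lowest at 1 µM doxorubicin in parental cells (-0.82), and CYP1B1 lies lowest under ruxolitinib in PR cells (-0.62).

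Counted by comparison, the members called stood beside very different backgrounds. PR cells under 10 nM paclitaxel had 4 of 5 members called, all higher, where 13.6% of all genes were called, and 3 of 5 higher between 6.5 and 10 nM, where 4.47% were. PR cells at 6.5 nM had 0 of 5 called by limma and 0 by voom, where 0.0942% of genes were. In that comparison CYP1A1 was the sole member with an unadjusted p under 0.05 (1.85e-04). In parental cells 1 of 4 members was called at 2.5 nM paclitaxel (26.8% of genes) and 2 of 4 between 2.5 and 10 nM (27.5%), while 10 nM against DMSO (48.2%), on which CYP1A1 was chosen, was not counted. DR cells under doxorubicin had 1 of 5 called at 350 nM (3.81% of genes), 4 of 5 at 1 µM (39.1%) and 3 of 5 between these doses (21.5%). Parental cells had 0 of 4 called by limma and 0 by voom at 65 nM (11.2% of genes), where AHR and CYP1B1 had unadjusted p values of 0.030 and 0.016, and both passed without parental DMSO replicate 2 (-0.47, adjusted p = 0.012, and -0.53, adjusted p = 0.019). They had 3 of 4 called at 1 µM (75.8%) and 4 of 5 between 65 nM and 1 µM (73.9%), so there a call was the common state of a gene.

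For ruxolitinib 1 member was called in each of the 4 comparisons, namely 1 of 4 alone in parental cells (13.2% of genes), 1 of 5 alone in PR cells (6.92%), 1 of 5 added to paclitaxel in parental cells (27.9%) and 1 of 5 added in PR cells (3.28%). Between lines under DMSO, 1 of 4 members was called for DR against parental cells (27.5% of genes), 1 of 4 for PR against parental cells (32.6%) and 2 of 5 for DR against PR cells (34%). Between lines under the same drug, 3 of 5 were called at 1 µM doxorubicin (71.4%) and 3 of 4 at 10 nM paclitaxel (49.7%). The comparisons within a line share their DMSO libraries, and the doses share libraries with the comparison between doses, so they are not independent of each other. AHRR is among the members counted and entered only through groups where it was high. Without AHRR the counts were 3 of 4 and 2 of 4 in PR cells at 10 nM against DMSO and 6.5 nM, and 1 of 3 in parental cells from 2.5 to 10 nM. They were 2 of 3 and 3 of 4 in parental cells at 1 µM doxorubicin against DMSO and 65 nM, and between lines 2 of 4 at 1 µM and 2 of 3 at 10 nM. AHRR was the sole member called at 2.5 nM paclitaxel and with ruxolitinib added in parental cells.

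Whether a drug acted differently on a member in a resistant line was tested as a difference of responses. At 1 µM doxorubicin 3 of 4 members were called, where 58.3% of all genes were. AHRR is among the 3, and parental 1 µM doxorubicin is a group through which it passed the filter on low values. Without AHRR the calls were those of CYP1B1 and AHR. CYP1B1 rose by 0.42 in DR cells and was at -0.27 in parental cells, a difference of 0.69 ± 0.19 (adjusted p = 0.0037). AHR fell by less in DR cells than in parental cells (-0.31 against -0.82, difference 0.51 ± 0.17, adjusted p = 0.011), and this difference was 0.31 (adjusted p = 0.10) without parental DMSO replicate 1 and 0.34 (adjusted p = 0.092) without parental 1 µM replicate 1, and 0.30 (adjusted p = 2.20e-04) with GC and length correction. AHRR was at -0.20 in DR cells and rose by 0.71 in parental cells (difference -0.91 ± 0.22, adjusted p = 9.02e-04). TIPARP differed by 0.32 ± 0.16 (adjusted p = 0.10), and by 0.25 (adjusted p = 0.019) with GC and length correction and 0.48 without parental DMSO replicate 2 (adjusted p = 0.0152) or parental 1 µM replicate 2 (adjusted p = 0.0149). CYP1A1, described without a test, differed by -0.01, with a range from -0.25 to 0.23 over the settings tried.

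At 10 nM paclitaxel the responses of PR and parental cells gave 1 call among 4 members (10.8% of genes). No member besides AHRR was called, and both 10 nM groups are among those through which AHRR passed the filter on low values. AHRR rose by 0.70 in PR cells and stood 1.39 higher in parental cells, a difference of -0.69 ± 0.22 (adjusted p = 0.042) that uses the comparison in which CYP1A1 was chosen. It did not pass with a pseudocount of 0.25 CPM (adjusted p = 0.080), no filter on low values (0.052), only the cell lines compared (0.061), a voom fit (0.075) or without any 1 of 7 of the 8 libraries compared (adjusted p = 0.0656 to 0.155). CYP1A1 differed by -0.56, with no test, TIPARP by -0.26 (adjusted p = 0.35; -0.31 and adjusted p = 0.011 with GC and length correction), CYP1B1 by 0.42 (adjusted p = 0.17) and AHR by 0.02 (adjusted p = 0.95). The responses to ruxolitinib gave 0 calls among 4 members by limma and 0 by voom, where 0.408% of genes were called, and no member tested had an unadjusted p under 0.05. CYP1A1 differed there by -0.62, with no test.

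Beside the members, 100 genes in 8 lists around the receptor were counted, all of them in the table, of which 71 passed the filter. CYP1A1 was chosen on parental cells under 10 nM paclitaxel against DMSO, so the list counts of that comparison are a description. The lists were also chosen with earlier results of these data known. Under 10 nM paclitaxel in parental cells, 6 of the 8 tested genes of the receptor's wider target battery rose and 0 fell, where 20.1% of all genes rose and 28.1% fell. They included EREG, an EGF-family ligand (0.82 ± 0.15, adjusted p = 9.02e-05), NEDD9, a scaffold protein of cell adhesion (0.73), the drug efflux pump ABCG2 (0.51) and NFE2L2, the master factor of the antioxidant response (0.45). The battery's median difference was 0.38 and that of all genes -0.05. The count was lower without parental DMSO replicate 1. It was 8 with no filter on low values, where listed genes that fail the filter could also count. In PR cells at the same dose only NQO1, a quinone reductase, rose among the 8 (0.31 ± 0.07, adjusted p = 0.0038), where 6.62% of genes rose and 6.99% fell, and the median was 0.23; the count was 0 without PR 10 nM replicate 1 and 5 with GC and length correction. CYP1A2, UGT1A1, UGT1A6, GSTA1, CYP2S1 and SERPINB2 did not pass the filter and were not tested in the fit with the filter.

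Under 1 µM doxorubicin the same battery had 3 genes higher and 1 lower in DR cells (19.1% and 19.9% of all genes), led by NEDD9 (1.40 ± 0.09, adjusted p = 1.19e-10) and ALDH3A1, an aldehyde dehydrogenase (0.79 ± 0.12, adjusted p = 1.67e-05), with ABCG2 at 0.44 and STC2, a secreted glycoprotein, at -0.33. In parental cells it had 2 higher and 1 lower (34.3% and 41.5% of all genes), NEDD9 (0.90), ABCG2 (0.73) and SLC7A5, an amino acid transporter (-0.47). The coregulators fell in larger number. Of 12 tested, 8 fell and 1 rose in parental cells, among them SMARCA4 (-1.17 ± 0.10, adjusted p = 2.13e-10) and NCOA1 (-1.16), and the median was -0.94 against -0.07 for all genes. In DR cells 5 fell and 0 rose, with NCOA1 at -0.66, NCOR1 at -0.61, NCOA2 at -0.37 and EP300 at -0.32, and 3 fell without DR DMSO replicate 2 or DR 1 µM replicate 1. In the receptor's complex, 5 of 8 genes fell and 2 rose in parental cells. There ARNT, the partner of the receptor, fell by 0.61 on the log2 scale (adjusted p = 3.88e-07) and HSP90AB1 fell by 0.70, while ARNT2, the brain-enriched relative of ARNT, rose by 1.14 and AHR itself is among the 5. In DR cells 3 fell and 3 rose, with ARNT2 at 0.87 and SRC at 0.54, where leaving AHR aside 2 fell, 0 of them without DR 1 µM replicate 1 and 4 with GC and length correction, and 1 rose without DR DMSO replicate 1.

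Enzymes of tryptophan breakdown, other P450 enzymes and conjugating enzymes were counted in the same way. Under 1 µM doxorubicin KMO and QPRT, enzymes of the kynurenine pathway from tryptophan, rose in parental cells (2.27 ± 0.11, adjusted p = 1.93e-14, and 1.44 ± 0.13, adjusted p = 9.90e-10) and in DR cells (1.14 and 1.61). That list had 4 higher and 4 lower of 9 in parental cells, where 34.3% of all genes rose and 41.5% fell, and 4 higher and 2 lower in DR cells, where single libraries left out took these to 2 and 1 (DR DMSO replicate 1, DR DMSO replicate 2 or DR 1 µM replicate 1). Of 12 other P450 enzymes and partners tested, 5 rose and 3 fell in parental cells under 10 nM paclitaxel (20.1% and 28.1% of all genes). In PR cells 3 rose and 1 fell at that dose (6.62% and 6.99% of all genes). Under 1 µM doxorubicin 4 rose and 1 fell in DR cells (19.1% and 19.9%), and 4 rose and 3 fell in parental cells (34.3% and 41.5%). Among them CYP19A1, the aromatase, rose under 10 nM paclitaxel in parental cells (1.67 ± 0.16, adjusted p = 2.64e-08) and in PR cells (0.65 ± 0.16, adjusted p = 0.0093), and CYP4B1 rose in DR cells under 1 µM doxorubicin (1.83 ± 0.18, adjusted p = 3.09e-08). Of 7 conjugating enzymes tested, 5 fell and 0 rose in parental cells under 10 nM paclitaxel, among them UGT2B7 (-0.91), the oestrogen sulfotransferase SULT1E1 (-0.88) and SULT1A1 (-0.65), and 3 fell without parental DMSO replicate 2. Of all genes 20.1% rose and 28.1% fell there, in the comparison on which CYP1A1 was chosen. In PR cells at 10 nM 0 of the 7 rose and 0 fell (6.62% and 6.99% of all genes). Under 1 µM doxorubicin 3 rose and 4 fell in parental cells (34.3% and 41.5% of all genes), and 2 rose and 1 fell in DR cells (19.1% and 19.9%). SULT1E1 rose under ruxolitinib alone in parental cells (1.30 ± 0.16) and in PR cells (0.78 ± 0.16, a call lost without PR ruxolitinib replicate 1), where 5.51% and 2.86% of all genes rose and 7.71% and 4.06% fell. Between lines under DMSO, the target battery had 3 higher and 3 lower of 8 in DR against parental cells (12.3% and 15.2% of all genes), with NQO1 at 1.02 and STC2 at -0.86, and 3 higher and 3 lower in PR against parental cells (16.3% and 16.3%), with ALDH3A1 at 2.10 and NQO1 at 0.72. CYP1A1 was 1.11 times and 0.829 times the parental mean in these 2 comparisons.

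**Figure D4:**
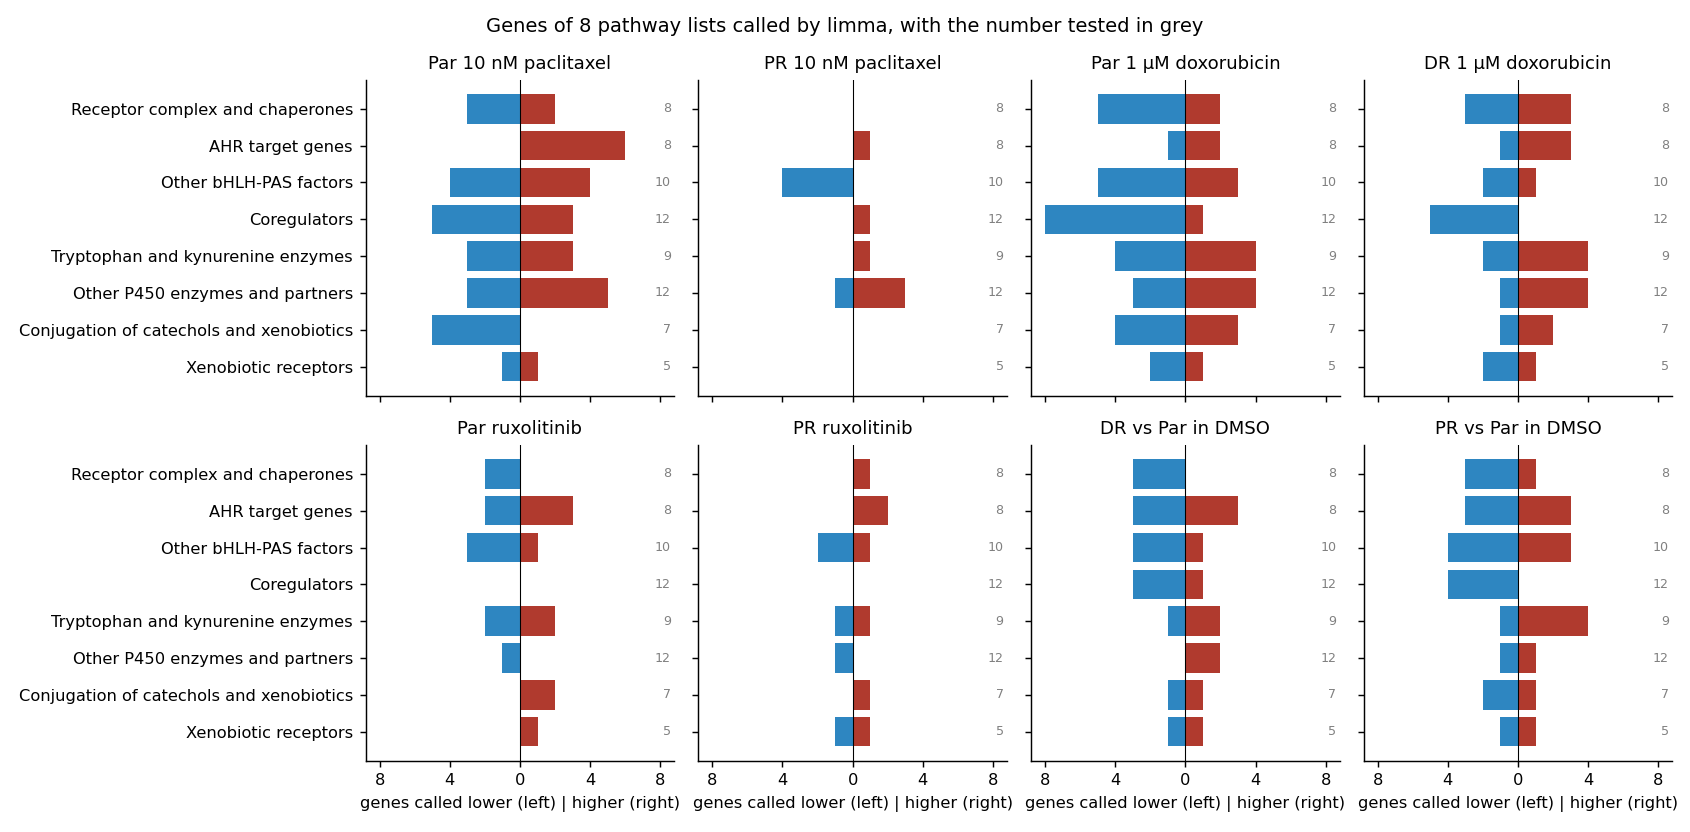
Number of genes called lower (left of 0) and higher (right of 0) by limma in each of 8 lists around the receptor, in 8 comparisons, with the number tested in grey. The target battery has 6 genes higher and 0 lower in parental cells under 10 nM paclitaxel, the comparison on which CYP1A1 was chosen. The coregulators have 8 lower and 1 higher in parental cells under 1 µM doxorubicin.

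Finally, the genes whose pattern was most like a member's were found by Pearson's r over the 15 group means, among 6786 genes whose means spanned at least 1 log2 unit. The points share lines, controls and libraries, and r is a description without a test. The 6 genes most like CYP1A1 were HDAC9, a histone deacetylase (r = 0.94), CD163L1 (0.94), the cytokine IL32 (0.94), LRRC66 (0.93), RAET1L, a ligand of the NKG2D receptor (0.93), and CALCOCO1 (0.92). HDAC9 had a mean of 3.06 CPM in parental cells under DMSO, 26.7 CPM under 10 nM paclitaxel, 25.3 CPM under 1 µM doxorubicin, 26.1 CPM in DR cells under 1 µM doxorubicin and 14.4 CPM in PR cells under 10 nM paclitaxel. Of the members, TIPARP was the most like CYP1A1 (r = 0.71), followed by AHRR (0.52), CYP1B1 (0.39) and AHR (-0.26). TIPARP and AHRR resembled each other more (0.77), and both had TPRA1 and NPC1L1 among their 3 nearest genes. AHR was closest to ATP2B1 and DOCK4 (0.95 each) and to SGMS1 (0.92), and CYP1B1 to ACTR3C, ADPRH and SUSD1 (0.82, 0.82 and 0.81).

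**Figure D5:**
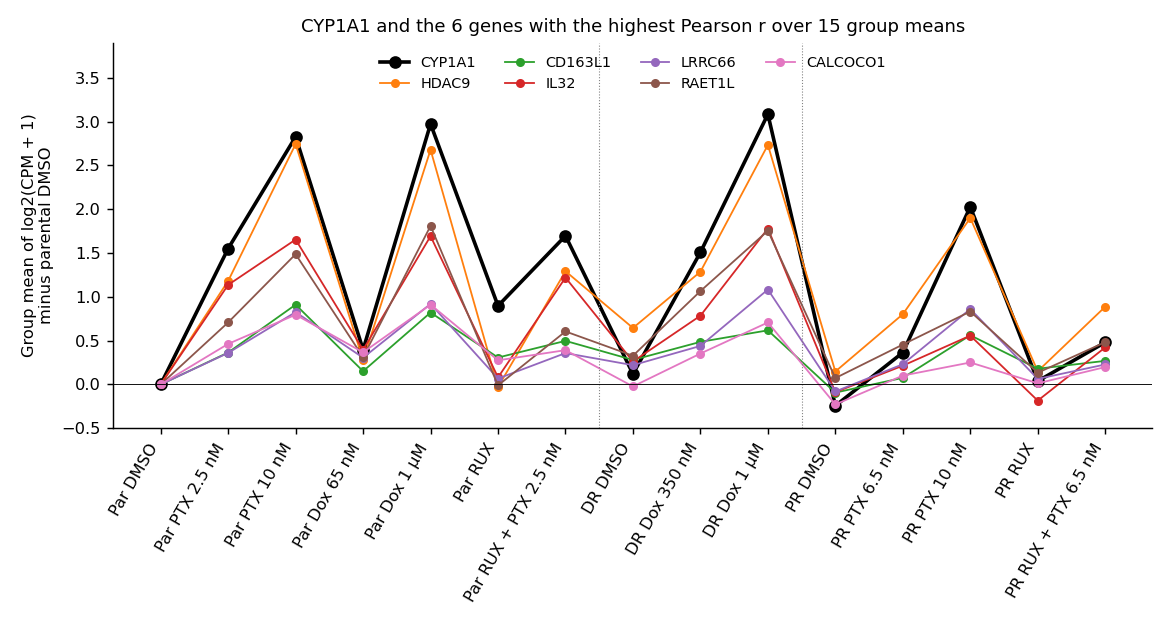
Group means of log2(CPM + 1) minus that of parental DMSO, for CYP1A1 (black) and the 6 genes with the highest Pearson's r with it over 15 group means, with dotted lines between the 3 cell lines. Each of the 7 has its highest group mean in parental cells under 10 nM paclitaxel or in parental or DR cells under 1 µM doxorubicin. Under ruxolitinib alone in parental cells CYP1A1 stood 0.90 above DMSO. There CD163L1 went from 4.14 under DMSO to 4.45 and CALCOCO1 from 3.16 to 3.44, while HDAC9, IL32, LRRC66 and RAET1L moved less.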

How the data were processed

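Poly-A RNA of SUM190 cells was measured in 30 libraries in 15 groups of 2. Per the submitters' processing notes, the authors used STAR 2.5.1b, edgeR and GRCh37 (hg19); the sources used here do not give how reads were counted or on which annotation. Deposited values are log2(CPM + 1) after TMM scaling by the authors, and whole read counts were recovered from them (100% within a tolerance of 0.01). No label states that the replicates are separate cultures. The p-values may thus rest on technical spread alone.

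limma 3.58.1 in R 4.3.3 (trend, robust; 15 residual degrees of freedom, with a prior median of 8.08) was fitted to 12743 genes with at least 1 CPM in at least 2 libraries, as a means model of all groups, which then share 1 spread per gene. Tests were two-sided, in 24 comparisons, with Benjamini-Hochberg adjustment over all genes within each. An exact permutation test of 2 against 2 libraries cannot reach 0.05. The procedure was tested on simulated data. The members and lists were chosen with earlier results of these data known. Genes named are the members, at most 4 called genes of largest change per list and comparison, and the 6 or 3 genes most like a member. A few list genes that this rule would name are not reported here.

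Each choice was varied in turn: the pseudocount (0.25 CPM), the low-value filter (none), the scaling (median of ratios), a replicate block, a fit of only the cell lines compared, voom on recovered reads, GC and length correction (splines on GENCODE v29 transcripts, which covered 95.3% of the tested genes), and the omission of each library, where the spread of the remaining library is borrowed from the other groups. A crossed replicate block was added after seeing the data.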

Additional observations from a re-analysis of the deposited data

Results flagged for a closer look

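Under 1 µM doxorubicin 3 members responded differently in DR and parental cells by the test of the difference itself. For CYP1B1 the difference of log2 responses was 0.685 (adjusted p = 0.0037), with 0.42 in DR and -0.27 in parental cells. For AHR it was 0.5122 (adjusted p = 0.011), with -0.31 and -0.82, and it was 0.30 with GC and length correction and 0.31 (adjusted p = 0.10) without parental DMSO replicate 1. For AHRR it was -0.9138 (adjusted p = 9.02e-04), with -0.20 and 0.71, at 6 to 28 reads per library. Parental 1 µM doxorubicin is a group through which AHRR passed the filter. Of all genes tested, 58.3% differed in this way. Under 10 nM paclitaxel the difference of AHRR responses between PR and parental cells was -0.6872 (adjusted p = 0.042), with 0.70 and 1.39, where 10.8% of all genes differed. It includes the parental comparison on which CYP1A1 was chosen and groups through which AHRR passed the filter. It did not pass with a pseudocount of 0.25 CPM (adjusted p = 0.080), no filter (0.052), voom (0.075), only the cell lines compared (0.061), the replicate block (0.0501) or without any 1 of 7 of the 8 libraries.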

How the results depend on the processing

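AHRR gave 11 of the calls counted here, all involving a group through which it passed the filter on low values. Of 104 tests of a member in a comparison, 43 were called. Of these, 16 were called in every setting tried and 27 were lost in at least 1, while 17 of 61 others were gained in at least 1 and no called difference changed sign. GC and length correction lost 2 calls and gained 9. Leaving out 1 library gave 8 to 11 calls between lines (10 with all libraries), 8 to 13 for paclitaxel (10), 11 to 17 for doxorubicin (15), 3 to 4 for ruxolitinib (4) and 2 to 5 for the differences of response (4), the 2 being without parental DMSO replicate 1. The cause was not tested. Replicate numbers did not pair the libraries: over 105 pairs of groups the correlation of their deviations ran from -0.69 to 0.65. With the replicate block the calls were 10, 10, 14, 4 and 3 in the same order, and it ended the calls of AHR in DR cells at 1 µM doxorubicin (adjusted p = 0.0503) and of the AHRR difference of response to paclitaxel (0.0501). With the replicate block and GC and length correction they were 11, 13, 16, 3 and 6, with AHRR at 2.5 nM paclitaxel in parental cells at an adjusted p of 0.0524, and with a crossed replicate block, added after seeing the data, 11, 13, 20, 4 and 6. Of 648 recounts of list genes under the alternatives, 142 moved by over 1.5 times. Counts of all genes called moved by over 1.5 times in several comparisons. With only the cell lines compared they went from 3414 to 1000 (parental 2.5 nM paclitaxel), 3508 to 1899 (10 against 2.5 nM), 1421 to 461 (65 nM doxorubicin), 1685 to 775 (ruxolitinib) and 3561 to 1428 (ruxolitinib added). In PR cells they went from 12 to 114 (6.5 nM), 1735 to 3745 (10 nM), 569 to 2130 (10 against 6.5 nM), 882 to 2102 (ruxolitinib) and 418 to 1047 (ruxolitinib added). With GC and length correction these 5 PR counts were 138, 3568, 1941, 2064 and 1366, and DR against parental DMSO went from 3505 to 5262, parental 65 nM doxorubicin from 1421 to 2891, parental ruxolitinib from 1685 to 3523, DR 350 nM from 486 to 1806, DR 1 µM against 350 nM from 2743 to 4738, and the PR and parental difference of response from 1370 to 3312 for paclitaxel and from 52 to 266 for ruxolitinib. The replicate block together with that correction gave 130, 3535, 1907, 2028 and 1331 for PR, and 2832, 3472, 1782, 4696, 3289 and 252 for the last 6. The crossed replicate block gave 43, 2819, 1252, 1360 and 684 for the PR counts, 2466 for parental 65 nM, 966 for DR 350 nM, and 2161 and 128 for the differences of response. PR 6.5 nM also had 18 with the lower pseudocount, 4 with no filter and 5 with voom. The causes were not tested. Depth limits AHRR, at 3 to 54 reads per library.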
